A study of Mus musculus with 12 samples.

Results

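The genes described here are 9 regulators that set the expression program of the hepatocyte, the main cell of the liver: the transcription factors Hnf4a, Foxa2, Foxa3, Cebpa, Onecut1 and Prox1, and the nuclear receptors Nr1h4 (FXR), Nr1i3 (CAR) and Nr0b2 (SHP). They were listed by name, with earlier results of these data known. Their probes were found through the RefSeq accession that the array files give for each probe. All 9 were found, on 13 probes, among 16535 named genes and 41174 probes. Hnf4a had 3 probes, Cebpa and Prox1 had 2 each, and every other gene had 1. The probe with the highest mean over the 12 arrays stood for a gene, which for Hnf4a is not the probe that was brightest in liver.

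RNA of liver and of esophagus from the same 6 male mice, on a mixed 129Sv/C57BL6 background and about 8 months old, was measured on 12 one-colour arrays, with 3 arrays in each of 4 groups. TG mice (Col1a1tetO-Nanog/+;Rosa26rtTA/+) carried a Nanog transgene that doxycycline switches on, and CTR mice (Col1a1+/+;Rosa26rtTA/+) carried the rtTA activator without it. Mice of both genotypes drank doxycycline at 0.2 mg/ml in 7.5% sucrose for 48 h, so every group shares the activator, the drug and the sugar. The activator stands at the widely active Rosa26 locus, and each array holds a whole organ rather than sorted cells. Liver RNA was taken with Trizol and a column and esophagus RNA with a kit for fibrous tissue, so the organs differ in their extraction as well, and the effects of both cannot be told apart.

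Values are log2 signals relative to the 75th percentile of their own array, so 0 is that percentile and 1 unit is a doubling. A level of one gene says nothing about the level of another, because each probe binds with its own strength. The scanner software called 56.4% to 81.8% of the probes of an array well above background. The 6 hepatocyte markers on the arrays were all above background on every liver array, with Alb (albumin) at up to 10.16 in TG livers and 10.09 in CTR livers and at no less than 9.75 in any liver. The keratins Krt5 and Krt13 marked the esophagus, with Krt5 at most at -0.85 in TG livers and -1.28 in CTR livers, against 7.50 to 8.04 in TG and 7.54 to 8.21 in CTR esophagi. The Nanog probe was above background on 0 of 12 arrays, so the arrays show no induction of the transgene. Where the probe lies in the mRNA was not analysed here.

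Some arrays stood apart in genes of the circadian clock. Per2, a repressor in the clock, was at 0.66, -1.73 and 0.70 in livers TG1, TG2 and TG3 and at -1.60, 0.99 and 1.27 in livers CTR1, CTR2 and CTR3. Livers TG2 and CTR1 were thus far below the other 4. In the esophagus Per2 was at -2.92, -2.46 and -0.73 in TG and at -0.41, 0.26 and 0.26 in CTR mice, so that Per2 was low in the esophagus but not the liver of mouse TG1, and in the liver more than in the esophagus of mouse CTR1. Whether each array carries the label of the mouse it came from cannot be told from the labels, and every TG minus CTR value and every pairing by mouse below rests on them. Results are given below with and without livers TG2 and CTR1 where they rest on them.

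Hepatocyte identity is kept by a network of factors that bind each other's genes. Foxa factors open chromatin at liver enhancers, Hnf4a, Cebpa and Onecut1 occupy many of the same sites, and Prox1 is a partner that dampens several nuclear receptors. Nr1h4 senses bile acids and induces Nr0b2, which lacks a DNA-binding domain and represses bile acid synthesis. Nr1i3 answers to drugs and foreign compounds and induces genes that oxidise, conjugate and export them.

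Promoters of 4 members are printed because the results on the livers and on the probes of Hnf4a return to them. Each line is the 250 bases before a RefSeq transcription start of GRCm38.p6, 5′ to 3′ on the strand of the gene, and capitals mark matches to the motifs searched.

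Hnf4a promoter window (chr2:163506607-163506856, plus strand): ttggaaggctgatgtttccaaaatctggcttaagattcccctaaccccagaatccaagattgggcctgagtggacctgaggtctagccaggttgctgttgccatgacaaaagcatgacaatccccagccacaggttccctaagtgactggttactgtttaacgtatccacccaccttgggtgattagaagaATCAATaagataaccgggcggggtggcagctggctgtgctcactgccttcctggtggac
Hnf4a promoter window (chr2:163546905-163547154, plus strand): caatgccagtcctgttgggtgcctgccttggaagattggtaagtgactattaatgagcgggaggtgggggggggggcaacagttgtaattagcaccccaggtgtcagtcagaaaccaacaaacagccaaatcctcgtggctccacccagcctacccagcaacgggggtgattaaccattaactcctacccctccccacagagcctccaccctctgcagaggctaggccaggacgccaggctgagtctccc
Nr1i3 promoter window (chr1:171213720-171213969, plus strand): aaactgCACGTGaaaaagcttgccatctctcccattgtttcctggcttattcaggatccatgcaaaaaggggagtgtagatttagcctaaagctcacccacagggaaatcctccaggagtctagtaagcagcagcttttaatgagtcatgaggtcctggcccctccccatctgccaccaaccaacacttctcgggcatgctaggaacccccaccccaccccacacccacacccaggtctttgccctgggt
Onecut1 promoter window (chr9:74861671-74861920, plus strand): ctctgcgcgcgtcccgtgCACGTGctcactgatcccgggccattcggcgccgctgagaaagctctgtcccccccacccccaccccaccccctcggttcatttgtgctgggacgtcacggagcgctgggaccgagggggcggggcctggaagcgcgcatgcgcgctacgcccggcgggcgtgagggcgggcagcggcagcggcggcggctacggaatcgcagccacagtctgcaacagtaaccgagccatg
Nr1h4 promoter window (chr10:89506659-89506908, minus strand): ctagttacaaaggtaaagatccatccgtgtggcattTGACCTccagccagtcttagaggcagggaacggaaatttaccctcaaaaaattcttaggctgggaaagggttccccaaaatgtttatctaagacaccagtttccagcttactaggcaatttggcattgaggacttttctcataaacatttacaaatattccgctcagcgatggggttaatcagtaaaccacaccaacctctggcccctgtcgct

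On both strands of the 13 windows that RefSeq starts give the 9 genes, 8 motifs were searched. The first Hnf4a window held the ONECUT motif ATTGAT, found in windows of Hnf4a and Foxa2 and in 6.72% of all 32851 promoter windows of that length. The second Hnf4a window, from the start that lies further along the gene, held 0 of the motifs searched. The E-box CACGTG, the motif that clock activators bind, was in windows of Nr1i3, Onecut1 and Nr0b2 and in 6.02% of all windows. The nuclear receptor motif AGGTCA was in the Nr1h4 window and in 14% of all windows. The HNF4 motif CAAAGTCCA (0.384% of all windows), the FOXA motif TGTTTAC (3.17%), the Nr5a2 motif TCAAGGTCA (0.387%), the CEBP motif TTGCNNAA (9.56%) and the D-box TTANGTAA (2.06%) were in windows of 0 members. A match is only a match of letters, and the longer Nr5a2 motif holds the receptor motif.

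All 9 regulators had higher signals in liver than in esophagus, in mice of both genotypes. Hnf4a, Foxa3, Cebpa, Nr1h4 and Nr1i3 were above background on every liver and esophagus array, as was Foxa2 in CTR mice. In TG mice 5 of these 5 passed the test, where 40.5% of the 19500 features above background on all 6 TG arrays were called higher in liver and 21.7% lower (limma, adjusted p from 1.94e-10 to 0.00027). In CTR mice 6 of 6 passed, where 41% of 17534 such features were called higher and 22.5% lower (adjusted p from 2.82e-10 to 0.00059). Their median difference was 4.12 on the log2 scale in TG mice and 6.11 in CTR mice, against 0.43 and 0.36 over those features, and the 2 sets of genes differ by Foxa2. Livers and esophagi did not overlap for any of them, while 46.7% of the features in TG mice and 44% in CTR mice were apart with liver higher. Onecut1, Prox1, Nr0b2 and, in TG mice, Foxa2 entered the test through the liver alone and so had to differ, and nothing is read from their passing. With them 9 of 9 passed in each genotype, where 38.8% of all 23912 features tested in TG mice and 34.5% of 23365 in CTR mice were called higher. Organ calls were 61.5% higher in liver among all calls in TG mice, and 51.3% with normexp and quantile normalization. In whole organs, fewer cells of a type and less RNA per cell cannot be told apart.

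**Figure D1:**
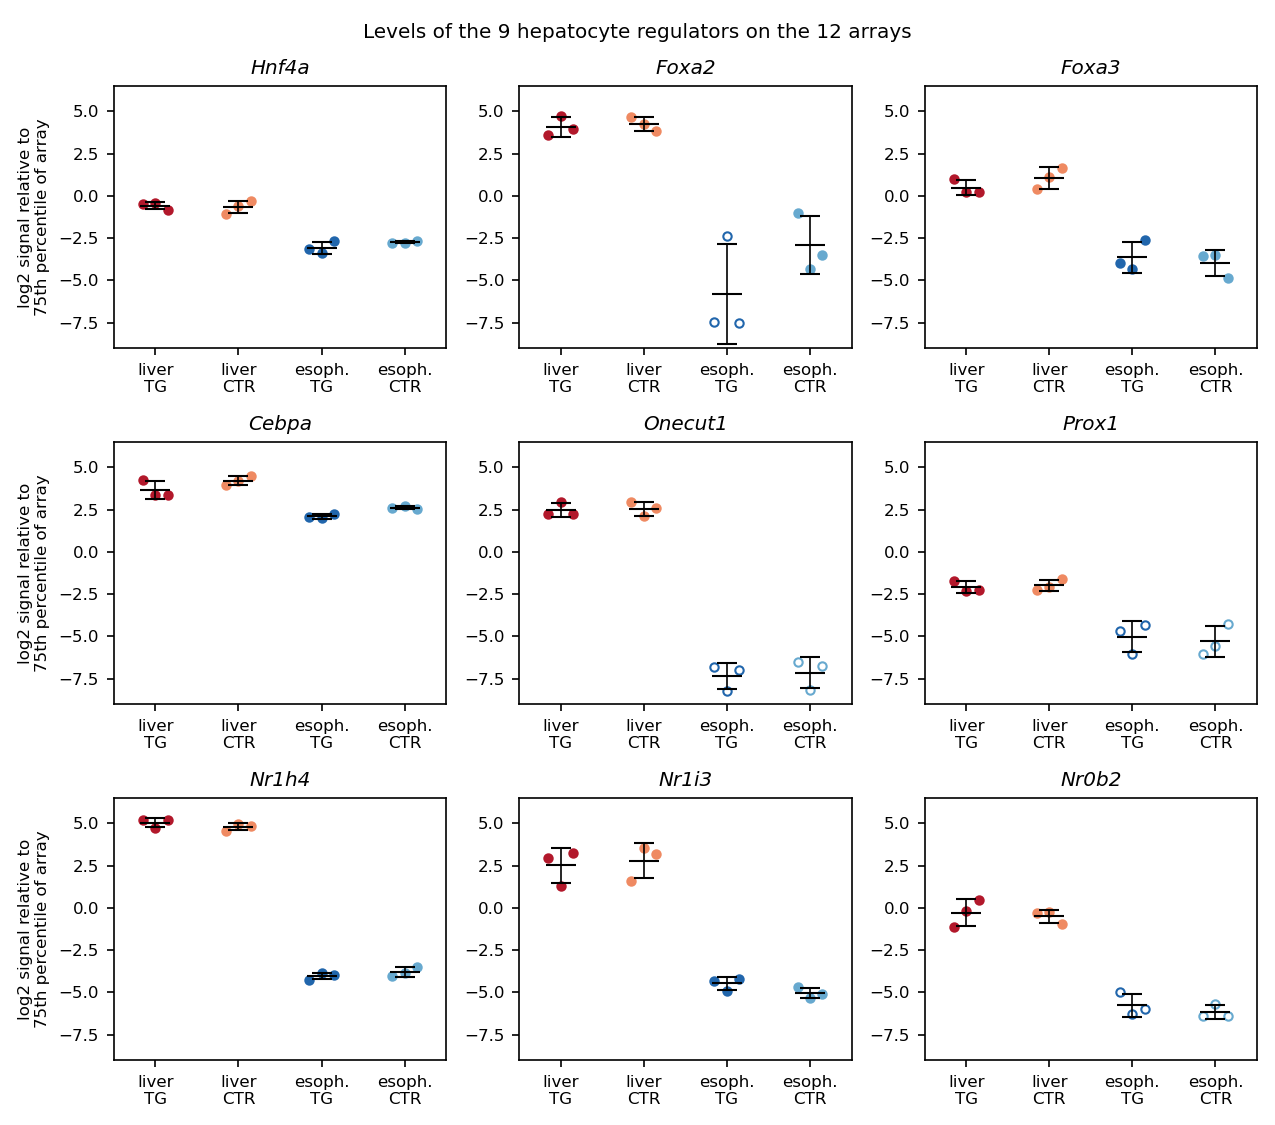
Log2 signal of the 9 genes on each of 12 arrays, relative to the 75th percentile of the array. Each point is 1 array, lines are group means ± SD (n = 3), and open points mark groups with fewer than 3 arrays above background. Both liver groups lie above both esophagus groups for every gene, and Foxa2 is scattered among the esophagi.

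Hnf4a, a nuclear receptor that works as a master factor of the hepatocyte and of gut epithelium, was at -0.50, -0.41 and -0.82 in TG livers and at -1.06, -0.60 and -0.32 in CTR livers. In the esophagus it was at -3.12, -3.39 and -2.69 in TG and at -2.77, -2.79 and -2.66 in CTR mice. The 6 livers overlapped between genotypes, and each lay above every esophagus. Liver exceeded esophagus by 2.49 (SE 0.24, limma adjusted p = 6.62e-06) in TG mice and by 2.08 (SE 0.24, adjusted p = 2.47e-05) in CTR mice. The size depended on the probe. This probe was above background on all 12 arrays, while the 2 others were above background on 0 of 6 esophagi, so only bounds can be given. One of them, at a mean of 3.75 in TG and 3.83 in CTR livers, exceeded the lowest measurable signal by at least 868-fold in TG mice and at least 956-fold in CTR mice. The other did so by at least 33.1-fold in TG mice and at least 31.8-fold in CTR mice. Each bound sets the mean of 3 livers against the dimmest probe above background on each esophagus array, or the signal of the probe itself where that was higher. Bounds here and below hold for the main processing only. Which Hnf4a transcripts each probe reads was not analysed here, and the gene has starts at both promoters printed above.

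Foxa2, a pioneer factor of liver and of other endoderm such as airway, was at 3.58, 4.75 and 3.94 in TG livers and at 4.67, 4.27 and 3.85 in CTR livers. In TG esophagi it was at -7.46, -2.36 and -7.53, above background on 1 of 3 arrays, and in CTR esophagi at -1.01, -4.31 and -3.47, above background on all 3. The livers were close together and the esophagi far apart, with TG1 and TG3 lowest. With esophagi no lower than the lowest measurable signal, the organ difference in TG mice was 8.87, a value with no test. In CTR mice, where every array was above background, it was 7.19 (SE 1.27, adjusted p = 0.00059).

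Foxa3, a Foxa relative active in adult liver, was at 1.00, 0.25 and 0.22 in TG livers and at 0.40, 1.09 and 1.67 in CTR livers. Esophagi had -3.98, -4.33 and -2.60 in TG and -3.55, -3.47 and -4.87 in CTR mice, all above background. Liver exceeded esophagus by 4.12 (SE 0.53, adjusted p = 6.49e-05) in TG mice and by 5.02 (SE 0.53, adjusted p = 1.48e-05) in CTR mice.

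Cebpa, a factor that halts division and drives metabolic genes in liver and fat, had the smallest organ difference of the genes measured in both organs. It was at 4.26, 3.38 and 3.37 in TG livers and at 3.97, 4.22 and 4.47 in CTR livers. In esophagi it was at 2.05, 2.01 and 2.27 in TG and at 2.60, 2.71 and 2.55 in CTR mice. Every esophagus thus held a signal well above background. The organ difference was 1.56 (SE 0.24, adjusted p = 0.00027) in TG mice and 1.60 (SE 0.24, adjusted p = 0.00022) in CTR mice, a fold of 2.94 and 3.03. Its second probe differed by 1.13 and 1.71.

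Onecut1 (HNF6), which acts with Foxa and Hnf4a on liver genes, was at 2.23, 2.94 and 2.26 in TG livers and at 2.94, 2.12 and 2.60 in CTR livers. It was above background on 0 of 6 esophagi, so only a bound can be given. Liver exceeded the lowest measurable signal by at least 359-fold in TG mice and at least 395-fold in CTR mice, found as for Hnf4a. With other processing and other fits the log2 difference was as low as 5.77 in TG and 5.95 in CTR mice. These folds are thus bounds for the main processing only.

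Prox1, a homeobox factor of hepatocytes that also marks lymphatic endothelium, was at -1.70, -2.34 and -2.23 in TG livers and at -2.26, -2.09 and -1.59 in CTR livers. Esophagi had -4.65, -6.06 and -4.31 in TG mice, with 2 of 3 above background, and -6.01, -5.59 and -4.24 in CTR mice, with 1 of 3. The organ difference was 2.92 (SE 0.52) in TG mice and 3.30 (SE 0.52) in CTR mice, with dim esophagi in both. The second Prox1 probe was above background on 0 of 3 esophagi in each genotype. Its differences, 4.24 in TG and 3.97 in CTR mice, thus rest on esophagus signals not above background. Genes of lymphatic and blood endothelium were split. Of the 7 above background on all arrays compared, 1 rose and 3 fell in TG livers relative to esophagi, and 2 rose and 3 fell in CTR mice. Lyve1 fell, at -2.47 (SE 0.62) in TG and -2.98 (SE 0.62) in CTR mice, while Stab2, also of liver sinusoids, rose at 3.16 (SE 0.27) and 3.63 (SE 0.27). Flt4, a growth factor receptor of lymphatic vessels, was at 0.43 (SE 0.28, adjusted p = 0.201) in TG mice and rose at 0.89 (SE 0.28, adjusted p = 0.0172) in CTR mice.

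Nr1h4, the bile acid receptor, had the smallest adjusted p of the genes measured in both organs. It was at 5.18, 4.73 and 5.22 in TG livers and at 4.56, 4.96 and 4.85 in CTR livers. Esophagi had -4.25, -3.87 and -3.97 in TG and -4.05, -3.85 and -3.5 in CTR mice, all above background. Replicates agreed closely, and liver exceeded esophagus by 9.07 (SE 0.21, adjusted p = 1.94e-10), a fold of 538, in TG mice and by 8.59 (SE 0.21, adjusted p = 2.82e-10), a fold of 386, in CTR mice. With other processing and other fits these differences ran from 7.09 to 9.23 in TG and from 6.95 to 8.71 in CTR mice.

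Nr1i3, the receptor for foreign compounds, was at 2.96, 1.31 and 3.27 in TG livers and at 1.60, 3.56 and 3.21 in CTR livers. One liver of each genotype, TG2 and CTR1, was low. Esophagi had -4.30, -4.91 and -4.19 in TG and -4.69, -5.33 and -5.09 in CTR mice. The organ difference was 6.98 (SE 0.58, adjusted p = 2.43e-06) in TG mice and 7.83 (SE 0.58, adjusted p = 9.69e-07) in CTR mice, and 7.58 and 8.42 without those 2 livers.

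Nr0b2, the repressor induced by Nr1h4, was at -1.11, -0.17 and 0.45 in TG livers and at -0.28, -0.27 and -0.98 in CTR livers. Esophagi had -5.00, -6.30 and -5.96 in TG mice, with 2 of 3 above background, and -6.39, -5.69 and -6.40 in CTR mice, with 1 of 3. The organ difference was 5.48 (SE 0.44) in TG mice and 5.65 (SE 0.44) in CTR mice, and 5.40 and 5.48 with esophagi no lower than the lowest measurable signal.

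**Figure D2:**
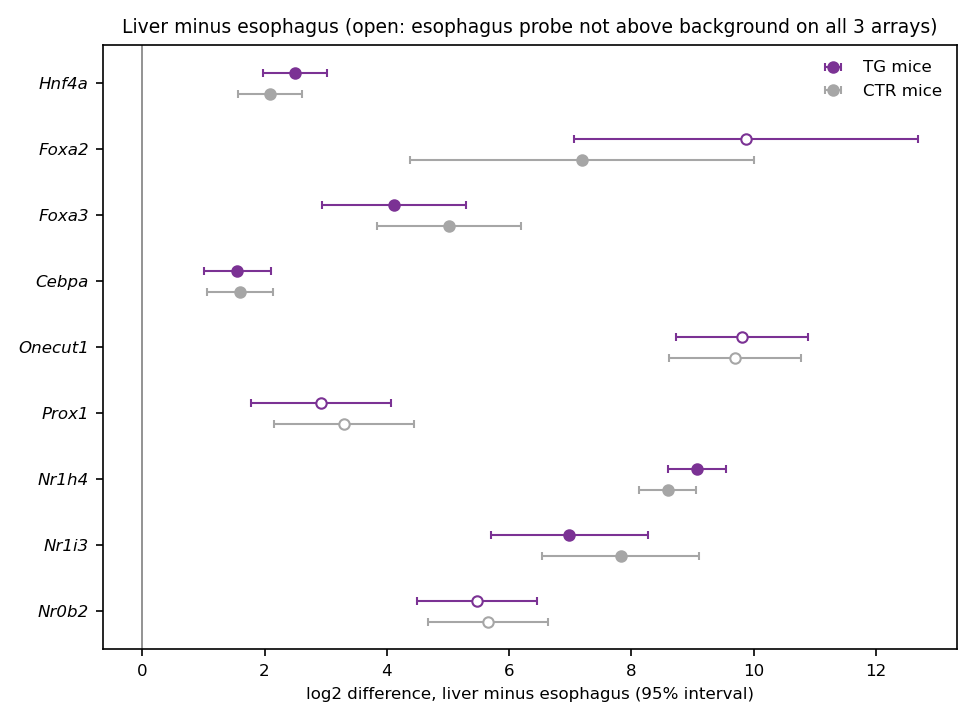
Log2 difference of liver minus esophagus for the 9 genes in TG mice and in CTR mice, with 95% intervals from the fit. Open points mark genes that were not above background on all 3 esophagi, whose place in the order is not known. Among the filled points every interval lies above 0, and values run from 1.56 for Cebpa to 9.07 for Nr1h4 in TG mice and from 1.60 for Cebpa to 8.59 for Nr1h4 in CTR mice.

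The order of the 4 groups put both livers above both esophagi for 9 of 9 genes. Within an organ, 0 of the neighbours in that order that could be tested passed. Onecut1, Prox1 and Nr0b2 were not tested within the esophagus. The highest mean was that of TG livers for Hnf4a, Nr1h4 and Nr0b2, and that of CTR livers for Foxa2, Foxa3, Cebpa, Onecut1, Prox1 and Nr1i3.

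Genes that these regulators are known to control were mostly higher in liver too. The counts here are of genes above background on every array compared, and stand against the 40.5% in TG and 41% in CTR mice called higher over such features. Hnf4a targets rose in 7 of 7 in TG mice, with a median difference of 6.97, and in 10 of 10 in CTR mice, with 8.62. Otc of the urea cycle was above background on 0 of 6 esophagi, and liver exceeded the lowest measurable signal by at least 4792-fold in TG and 4361-fold in CTR mice. For Ttr, a carrier of thyroid hormone and likewise dim in every esophagus, these bounds were 2176-fold and 2242-fold. Foxa and Cebpa targets rose in 2 of 2 in TG and 3 of 3 in CTR mice, among them Tdo2, which breaks down tryptophan, at 8.00 (SE 0.31) in TG and 8.17 (SE 0.31) in CTR mice. Of the Nr1h4 targets 3 of 4 rose in TG and 4 of 5 in CTR mice, with the bile salt pump Abcb11 at 9.49 (SE 0.20) in TG mice and 9.09 (SE 0.20) in CTR mice. Genes of bile acid synthesis and uptake rose in 2 of 2 in TG and 3 of 3 in CTR mice, where the transporter Slc10a1 was at 10.13 (SE 0.44). Of the Nr1i3 targets 7 of 10 rose in TG and 8 of 11 in CTR mice, and 1, the stress gene Gadd45b, fell, at -4.94 (SE 0.40) in TG and -4.83 (SE 0.40) in CTR mice. The P450 Cyp3a11 differed by 10.05 and 10.34.

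Other factors of the liver split. Of the other liver transcription factors above background on every array compared, 8 of 13 rose and 1 fell in TG mice, and 8 of 15 rose and 2 fell in CTR mice. Creb3l3, a factor of fasting metabolism, differed by 9.19 (SE 0.35) in TG and 9.25 (SE 0.35) in CTR mice. Onecut2, the relative of Onecut1, differed by 8.51 (SE 0.26) in CTR mice, and in TG mice was above background on 2 of 3 esophagi. Tbx3 fell at -0.58 in TG and -1.16 in CTR mice, and Zhx2, above background on 2 of 3 TG livers, at -1.39 in CTR mice. Of the other nuclear receptors 6 of 12 rose and 1 fell in TG mice, and 7 of 13 rose and 1 fell in CTR mice. Nr1i2 (PXR), the closest partner of Nr1i3 in drug response, was higher in liver by at least 698-fold in TG mice, where 0 of 3 esophagi were above background, and by 8.39 (SE 0.42) on the log2 scale in CTR mice. Ppara of fatty acid oxidation differed by 4.85 and 4.60, and Nr1h3 (LXR alpha) by 3.49 and 3.5. Esrra, a receptor of oxidative muscle and other tissues, fell at -0.71 and -0.66.

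The comparison of TG with CTR is one of genotypes under the same drug, in which the Nanog probe was above background on no array. In liver it called 0 of 9, and 0% of the 21247 features tested (limma, smallest adjusted p = 0.650), with 1624 features (7.64%) at an unadjusted p under 0.05. The median difference of the 9 was -0.11, against 0.13 over all features, with 3 higher and 6 lower in TG, where 66.5% of all features were higher. TG and CTR livers overlapped for all 9 genes, while 11.3% of all features were apart. The largest differences were Foxa3 at -0.57 (SE 0.53, 95% interval -1.74 to 0.61) and Cebpa at -0.55 (SE 0.24, interval -1.10 to -0.0093, adjusted p = 0.650), and the second Cebpa probe gave -0.91 (SE 0.35). Liver TG1, at 4.26, was above CTR1 and CTR2 in Cebpa, while TG2 and TG3 were lowest. Nr1h4 differed by 0.25 (SE 0.21), Nr0b2 by 0.23 (SE 0.44), Nr1i3 by -0.28 (SE 0.58), Prox1 by -0.11 (SE 0.52), Hnf4a by 0.082 (SE 0.24) and Onecut1 by -0.078 (SE 0.49). Foxa2 differed by -0.17, and its SE of 1.27 comes mostly from the esophagi that share the fit, since it was 0.38 with the livers alone.

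Without livers TG2 and CTR1, Cebpa differed by -0.53 (adjusted p = 0.499), Foxa3 by -0.77, Nr1h4 by 0.30 and Nr1i3 by -0.27 with an SE of 0.31, and Hnf4a turned to -0.20. The count of features called over all genes was 8 in that setting, with 0 of the 9 among them. The livers left were not alike in clock genes. Their log2 of the summed clock list was 7.35 and 7.47 in TG1 and TG3, and 6.57 and 6.40 in CTR2 and CTR3. Per2 went the other way. On slide 2, which carried livers TG3 and CTR2, Cebpa differed by -0.86, Foxa3 by -0.87, Nr0b2 by 0.71 and Nr1h4 by 0.26, with no replicate.

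In the esophagus 6 of the 9 could be tested and 0 were called, as were 0% of 23208 features (894, or 3.85%, at an unadjusted p under 0.05). Onecut1, Prox1 and Nr0b2 were not above background on all 3 arrays of either genotype. Cebpa was the one member whose groups were apart, with TG lower, where 6.13% of all features were apart that way. It differed by -0.51 (SE 0.24, adjusted p = 1.00), and by -0.66 on slide 3 for TG1 minus CTR2. Foxa2 differed by -2.86 (SE 1.27, interval -5.67 to -0.045, adjusted p = 1.00). Only 1 of 3 TG esophagi was above background for Foxa2, so the size of its difference is uncertain. With other processing and other fits it ran from -3.48 to -0.79. Nr1i3 differed by 0.57 (SE 0.58), Foxa3 by 0.33 (SE 0.53), Hnf4a by -0.33 (SE 0.24) and Nr1h4 by -0.23 (SE 0.21).

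**Figure D3:**
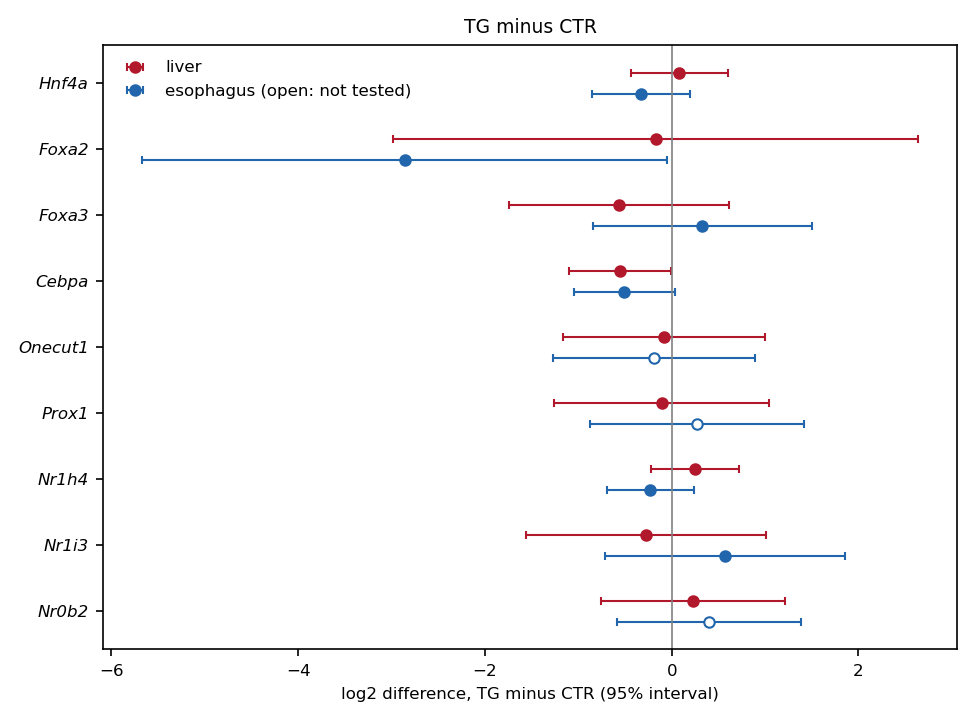
Log2 difference of TG minus CTR for the 9 genes in liver and in esophagus, with 95% intervals from the fit that are not adjusted for the number of features. Open points were not tested. Of the tested points, the intervals of Cebpa in liver (-0.55) and of Foxa2 in esophagus (-2.86) lie below 0, and neither passed after adjustment. Foxa2 was above background on 1 of 3 TG esophagi.

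The difference between the organs in the effect of TG was called for 0 of 9 genes, as for 0% of 24438 features (1216, or 4.98%, at an unadjusted p under 0.05). The largest was Foxa2 at 2.69 (SE 1.79), followed by Foxa3 at -0.90 (SE 0.75) and Nr1i3 at -0.85 (SE 0.82). The Foxa2 value rests on the same dim TG esophagi, and ran from 0.66 to 4.23 with other processing and other fits. Cebpa was at -0.044 (SE 0.35, interval -0.81 to 0.72). Its second probe, at -0.91 in liver, was at -0.34 (SE 0.35) in esophagus and at -0.58 (SE 0.50) for the difference between organs.

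Targets and relatives of the 9 gave 0 calls for TG against CTR in either organ in each of the 7 lists. In liver the smallest p among Nr1i3 targets were Cyp2b10, the classic drug-induced P450, at -1.55 (SE 0.66), and Alas1, which starts heme synthesis, at -1.03 (SE 0.50). In bile acid synthesis they were Cyp27a1 at -0.84 (SE 0.28) and Cyp8b1 at -0.86 (SE 0.47). Among Hnf4a targets they were the clotting factor F7 at -0.61 (SE 0.24) and the apolipoprotein Apoa4 at -1.04 (SE 0.60), and among Nr1h4 targets Fetub at 0.41 (SE 0.24) and Abcb11 at 0.33 (SE 0.20). Among Foxa and Cebpa targets they were Igfbp1, which binds insulin-like growth factors, at -0.89 (SE 0.75) and Tdo2 at -0.36 (SE 0.31). Tbx3, a repressor that also acts in stem cells, stood at 1.09 (SE 0.23, adjusted p = 0.650) among the other factors. In esophagus the values included Alb at -3.05 (SE 0.47, adjusted p = 0.302), whose probe was not above background on every TG esophagus. They also included Nr1i2 at -1.54 (SE 0.42), whose probe was above background on 0 of 3 TG and 3 of 3 CTR arrays.

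For some members the spread among livers was wider than the difference between genotypes, and the same livers stood apart in clock genes. Livers TG2 and CTR1 were both below the other 4 for Nr1i3, Nr1h4 and Prox1, and both above them for Foxa2 and Onecut1. These were 5 of 9 members. The margin was slight for Prox1, with CTR1 at -2.26 and TG3 at -2.23, and small for Nr1h4, with TG2 at 4.73 and CTR3 at 4.85. Of the 18074 features above background on all 6 livers, 13.4% had those 2 livers lowest, 12.6% had them highest and 26% had them at either end. In the clock list 7 of 12 usable genes had both livers lowest and 3 had both highest. Dbp, a clock output factor, was at 7.0, 4.42 and 7.18 in TG and at 4.78, 5.90 and 5.64 in CTR livers, and Arntl, the clock activator, at -3.46, -0.10 and -1.52 in TG and at 0.19, -1.89 and -1.79 in CTR livers. These 2 livers were singled out after the values were seen, so the counts are a description with no test.

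Many Nr1i3 targets had the same livers lowest as their receptor. In 8 of 12, livers TG2 and CTR1 were both lowest, and in 0 both highest, where 13.4% of all features had them lowest. Por, which passes electrons to every P450, was at 6.46, 5.72 and 7.03 in TG and at 5.32, 7.58 and 7.53 in CTR livers. Alas1 was at 5.66, 4.92 and 5.61 in TG and at 5.08, 6.88 and 7.33 in CTR livers. Cyp2b10 did not follow in full, at -3.46, -3.98 and -2.21 in TG and at -3.30, -0.58 and -1.12 in CTR livers, with TG1 as low as CTR1. Other lists had them too, with both livers lowest in 6 of 13 other nuclear receptors and in 3 of 5 Foxa and Cebpa targets, although Foxa2 itself was highest there. Nr1h4 targets had both lowest in 1 of 6, although Nr1h4 was low there, Hnf4a targets in 2 of 13 and hepatocyte markers in 0 of 6. The E-box searched above stands in windows of Nr1i3, which had these livers lowest, and of Onecut1, which had them highest. It also stands in a window of Nr0b2, which had them at neither end. Nr1h4, Prox1 and Foxa2, which had them at an end too, had no E-box match. The part of clock state in these values was not tested.

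**Figure D4:**
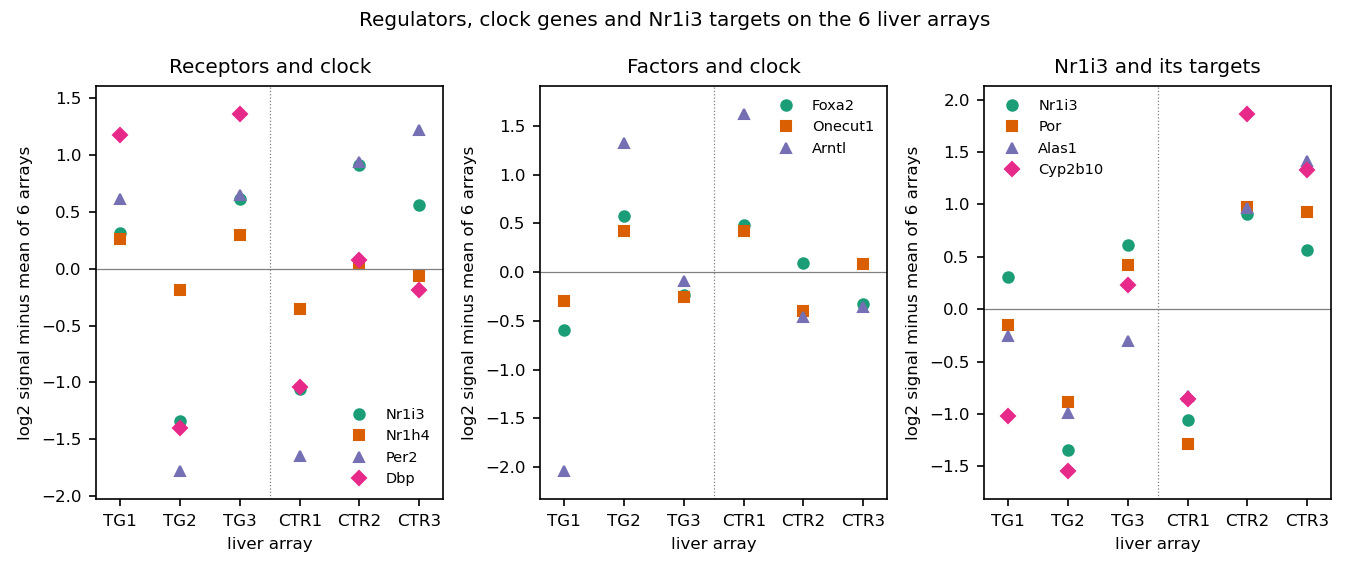
Log2 signal on each of the 6 liver arrays minus the mean of the 6, for receptors with clock genes, for factors with the clock activator Arntl, and for Nr1i3 with 3 of its targets. Livers TG2 and CTR1 are lowest for Nr1i3, Nr1h4, Per2 and Dbp, and highest for Foxa2, Onecut1 and Arntl.

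The genes whose pattern over the 6 livers was most like that of a member were found by Pearson's r among 11339 genes. For Nr1i3 they included Ankrd54 and Slc16a12 (r from 0.997 to 0.999), and 358 genes had r above 0.9. For Foxa2 they included Ccdc181 and Pgap2 (r from 0.995 to 0.996, with 134 above 0.9), and for Onecut1 Cyrib, Dcakd and Saa3 (r from 0.993 to 0.997, with 192). For Cebpa they were Eif4g1, Mgat4b and Hsp90ab1 (r from 0.992 to 0.996, with 271), and for Foxa3 Ncbp1, Homer2 and Egln2 (r from 0.994 to 0.998, with 270). Hnf4a had few like it, with 12 above 0.9 led by Nip7, Banp and Top2b. Nr1h4 went with Osbpl8, Crip3 and Rabgap1l, Prox1 with Dazap1, Derl1 and Ttc39c, and Nr0b2 with Sh2d2a, Odf2l and Mmab. With 6 arrays that differ in their clock genes, TG2 and CTR1 most, such values describe these livers and carry no p.

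In the esophagus Foxa2 and airway transcripts were lowest and highest on the same arrays, but differed in order on the others. The airway regulator Foxj1 was at -6.58, -2.71 and -5.96 in TG and at 1.31, -2.08 and -1.38 in CTR esophagi. Bpifa1, secreted in the upper airway, was at -5.20, 4.44 and -5.71 in TG and at 7.18, 4.02 and 5.16 in CTR esophagi, and Scgb1a1 of club cells at -0.49, 2.58 and -0.25 in TG and at 5.90, 2.99 and 2.85 in CTR esophagi. TG1 and TG3 were lowest and CTR1 highest for Foxa2 and for these 3 genes. TG2 was above CTR2 and CTR3 in Foxa2, but below both in Foxj1 and Scgb1a1 and between them in Bpifa1. In the list of airway, gland and stomach markers 5 of 6 usable genes had TG1 and TG3 below the other 4, as had 6.54% of all features, and its summed level ran from 0.34 to 4.98 in TG and from 4.87 to 7.97 in CTR esophagi, with 5 or 6 of 8 members above background in TG and 6 or 7 in CTR. The pattern was not found in airway genes alone. Of usable adipocyte markers 5 of 6 had TG1 and TG3 below the other 4, as had 3 of 6 cholangiocyte markers. In the cholangiocyte list 1 of 6 had them above the other 4. Of the 6 usable members, Foxa2 alone had them below and Nr1i3 alone had them above. The part of airway and other marker transcripts in the Foxa2 values was not tested. Foxa2 differed by -4.57 without esophagus TG2, and by -1.90 without CTR1, and passed in neither setting.

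**Figure D5:**
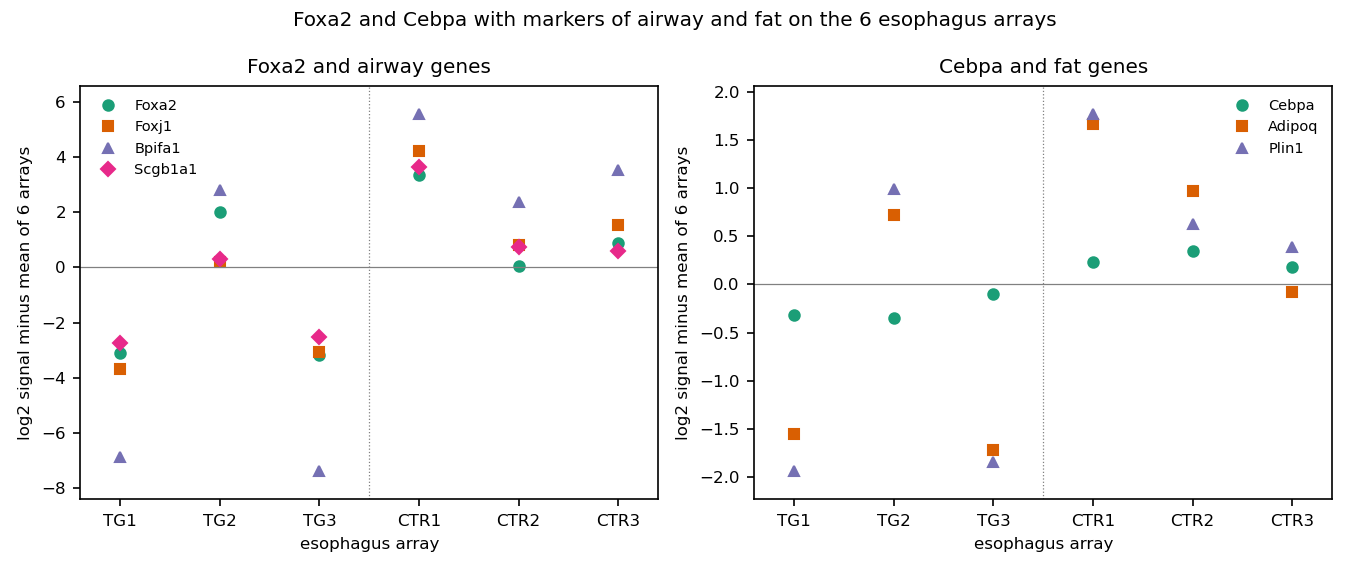
Log2 signal on each of the 6 esophagus arrays minus the mean of the 6, for Foxa2 with 3 airway genes and for Cebpa with 2 fat genes. Foxa2 and the airway genes are low on TG1 and TG3, while Cebpa is below its mean on all 3 TG arrays and its range is narrow beside that of Adipoq and Plin1.

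Cebpa, which fat cells also express, followed the fat transcripts on some arrays and not on others. Adipoq, a hormone of fat, was at 0.35, 2.62 and 0.18 in TG and at 3.57, 2.87 and 1.82 in CTR esophagi, and the lipid droplet protein Plin1 at -0.85, 2.08 and -0.75 in TG and at 2.86, 1.72 and 1.48 in CTR esophagi. TG1 and TG3 were below every CTR esophagus in Cebpa and in both fat genes. TG2 was high in both fat genes and lowest in Cebpa, at 2.01. The part of fat in the Cebpa values was not tested. The adipocyte list had 6 or 7 of 7 members above background on each esophagus, and its summed level ran from 4.97 to 6.90 in TG and from 6.52 to 7.23 in CTR esophagi. The summed level of hepatocyte markers was 11.54 to 11.77 in TG livers and 11.49 to 11.55 in CTR livers, against 0.89 to 1.40 in TG and 0.92 to 1.78 in CTR esophagi.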

How the data were processed

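RNA of 12 samples was read on Agilent 4x44K mouse arrays (design 014868). The deposited scanner files hold spot intensity values on a linear scale, made with Feature Extraction 10.7.1.1 and background-subtracted within each array, per the file headers. A deposited table from the authors gives log2 values of these arrays, quantile-normalized and not centred, with a column median of 7.27. The submitters' processing notes name limma and give no version. Each column correlated at 0.9999 with normexp values of its array, the table served as an alternative, and 0 columns were without a sample.

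Control probes and 1311 outlier spots were left out, 0 spots were saturated, and spots of a probe were averaged. Probes were named through RefSeq accessions (GRCm38.p6, 23374 of 41174 probes), and no array coordinates are given, since the design was annotated on another build. The log2 processed signal minus its 75th percentile entered one limma fit (lmFit, eBayes, limma 3.58.1, R 4.3.3) of 4 groups without a block, with 8 residual degrees of freedom. A feature entered a test if 1 or more of the groups compared had it well above background on each of 3 arrays. Organ counts in the text are of features above background on all 6 arrays compared, a restriction chosen after seeing the data. The two-sided p-values were adjusted by Benjamini and Hochberg over all features of a comparison, and 0.05 was the threshold. The number of arrays limits the precision. Summed levels of a list are log2 of the sum of its members' linear values.

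The organs pair by animal, per the labels; deviations of the same animal correlated at -0.04 to 0.19 between organs. TG and CTR numbers name different mice and do not pair. Arrays lay on 5 slides, and slide, animal, scaling, background, floor, filter, probes and single arrays were varied as alternatives. The planned normexp setting used median spot signals, since mean signals are not in the files used here.

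The members, gene lists and tests were chosen with earlier results of these data known. Named genes are all members, up to 3 called genes per direction (otherwise the 2 smallest p) of each list, tissue markers, and the 3 genes most like each member over the livers; Nr1i2 in esophagus, Por, Dbp, Arntl, Cyp2b10 by array, Scgb1a1, Bpifa1, Adipoq and Plin1 by array were chosen after their values were seen. Some genes that the rule names are not reported here. The procedure was tested on simulated data. Other software was R's jsonlite 2.0.0, Python 3.11.15, pandas 2.3.3 and matplotlib 3.10.9. Promoters are from RefSeq.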

Additional observations from a re-analysis of the deposited data

How the results depend on the processing

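The counts of members called were the same in every setting run. They were 9 of 9 for liver against esophagus in both genotypes, members that entered through liver alone included. They were 0 for TG against CTR in both organs and for the difference between organs. Both livers stayed above both esophagi for 9 of 9 genes with other scaling, a common floor or arrays left out. This was not checked in the other settings, and the order of TG and CTR within an organ was not part of the check. The sizes of the organ differences depended on the setting. In TG mice Nr1h4 ran from 7.09 to 9.23, Nr1i3 from 5.27 to 7.58, Foxa3 from 2.93 to 4.24 and Nr0b2 from 3.14 to 5.48. In CTR mice they ran from 6.95 to 8.71, 5.69 to 8.42, 3.59 to 5.35 and 2.99 to 5.93. With the animal as a fixed replicate block 9, 9 and 0 were called, and with the replicate number as a block 0 and 0, so pairing changed no call of a member. Over all features, TG against CTR in esophagus gave 1 call with quantile normalization, slide as a fixed block, array weights or only the groups compared, and 2 with normexp or the authors' table; the difference between organs gave 1 with quantile normalization, normexp or the authors' table. Leaving out livers TG2 and CTR1 together, chosen after seeing the data, gave 8 calls in liver. With single arrays left out the counts ran from 0 to 7 in liver (7 without TG2), 0 to 7 in esophagus (7 without TG2) and 0 to 1 for the difference. The cause was not tested.

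Differences between TG and CTR that turned sign were all uncalled. In liver, slide as a fixed block gave Hnf4a -0.15, Foxa2 1.38 and Nr0b2 -0.0096, slide as a random block gave Foxa2 0.039, array weights gave Foxa2 0.12 and Onecut1 0.18, and Hnf4a was at -0.20 without livers TG2 and CTR1. In esophagus, slide as a fixed block gave Foxa3 -0.29. For the difference between organs, Cebpa was at 0.022 with quantile normalization, 0.073 with normexp and 0.072 in the authors' table, Onecut1 at -0.18 with either of these and -0.14 with a common floor or slide as a fixed block, Nr0b2 at 0.15 with normexp or the authors' table, and Prox1 at 0.28 with every probe. The setting with every probe kept the probe of a gene with the smallest p. For Prox1 this was its second probe, above background on 0 of 3 esophagi in each genotype. With single arrays left out, liver values ran from -0.12 to 0.25 for Hnf4a, -0.50 to 0.083 for Foxa2, -0.31 to 0.11 for Onecut1, -0.30 to 0.087 for Prox1, -0.88 to 0.33 for Nr1i3 and -0.13 to 0.65 for Nr0b2. In esophagus Foxa3 ran from -0.19 to 0.68. The difference between organs ran from -0.34 to 0.11 for Cebpa, -0.33 to 0.62 for Onecut1 and -0.53 to 0.25 for Nr0b2. With 3 arrays a group, the intervals of TG minus CTR for Foxa2 in liver span -2.98 to 2.64, and signals of Onecut1, Prox1 and Nr0b2 near background in esophagus limit what can be said there.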
